A study of Homo sapiens with 14 samples.

Results

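Knockdown of JMJD3 in CUTLL1 cells was described by setting the pooled gene counts of shJMJD3 samples against those of shRenilla control samples. Of 55075 genes in the deposited table, 19772 had at least 50 counts in either column and were considered, and 13046 of these were protein-coding. CUTLL1 is a human T cell acute lymphoblastic leukemia (T-ALL) line that carries a translocation fusing the T cell receptor beta locus to NOTCH1. Cells grew in suspension, and retroviruses delivered a short hairpin RNA against JMJD3 (gene KDM6B, 3 samples), UTX (gene KDM6A, 2 samples) or, as the control, Renilla luciferase (3 samples). CEM, another T-ALL line, had 2 samples of each hairpin and is used here only for comparison. The hairpin sequences, the time after infection and the selection of infected cells, if any, were not given in the sources used here.

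JMJD3 and UTX erase the methylation of lysine 27 on histone H3, a mark that Polycomb repressive complex 2 (PRC2) deposits and that accompanies gene silencing. In T-ALL most cases carry activated NOTCH1, whose intracellular domain binds the factor RBPJ on DNA and switches on targets such as MYC, HES family repressors and NRARP. The series set out to contrast both demethylases in this leukemia.

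The values were 1 count per gene and hairpin, so the spread between samples could not be measured and no test was possible. Ratios are log2 values of shJMJD3 over control after TMM scaling, which assumes that most genes are alike in both columns. Intervals are exact binomial 95% intervals and cover counting error only. Levels are in CPM, counts per 1000000 counts of the column. They are compared between columns, never between genes.

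The control column had 258014046 counts and the shJMJD3 column 174301733. A smaller shRenilla column of 144394369 counts, deposited beside shUTX, was contained gene by gene in the larger one. Subtraction left a remainder of 113619677 counts, so the control had 2 parts. The parts differed in RNA content. Small non-coding RNA took 1.97% of the smaller column, 18.7% of the remainder, 11.7% of the shJMJD3 column and 2.58% of the shUTX column. Which samples were poly-A selected and which depleted of ribosomal RNA was not given in the sources used here, so RNA selection and hairpin cannot be told apart where the parts disagree. A gene is therefore called higher or lower than both control parts only where it was past the fold, in 1 direction, against the larger column, the smaller column and the remainder. The larger column is the sum of the others, so these are 2 comparisons and not 3. The 323 genes just inside the 50-count minimum (50 to 54 counts) had a median log2 ratio of -0.10 and the 355 just outside (45 to 49 counts) one of -0.08. A gene with under 50 control counts was considered only where its shJMJD3 count reached 50, which favours higher calls among rare transcripts.

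The targeted gene was lower with its hairpin. KDM6B was at 10.9 CPM with shJMJD3, against 21.5 CPM in the smaller control column, 15.3 CPM in the remainder and 28.2 CPM with shUTX. The shJMJD3 value was the lowest of the 4. The log2 ratio was -0.63 against the larger column (interval -0.71 to -0.56), a 1.55-fold lower level, and -0.61 and -0.66 against its parts. In CEM the same hairpin label went with a log2 ratio of -1.67. KDM6A, the other demethylase, was at 32.5 CPM with shJMJD3 and 35.8 CPM in the larger control, a log2 ratio of 0.01 (interval -0.03 to 0.06). In the PRC2 and H3K27 demethylase list of 14 measured genes, KDM6B was the only member 1.5-fold lower than both control parts (no member under scaling to totals) and none was higher. None of the 20 measured members of PRC1, which binds the methylated histone, was 1.5-fold from both parts in either direction. The same count of 0 held for the 17 measured COMPASS members, which methylate lysine 4 of histone H3. Of all protein-coding genes 4.66% were 1.5-fold higher than both parts and 2.27% lower. Under scaling to totals 1 PRC1 and 2 COMPASS members were 1.5-fold lower than both parts, as were 430 of all 13046 protein-coding genes. The lists are short beside these shares, so nothing about the complexes is read from the counts.

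At 2-fold, more protein-coding genes were higher than lower. Against the larger control, 519 were at least 2-fold higher (3.98% of those considered) and 201 at least 2-fold lower (1.54%). Against both control parts, 356 were higher (2.73%) and 66 lower (0.506%). Most of them were rare transcripts: 220 of the 356 and 40 of the 66 lay under 1 CPM in the larger control, as did 12.2% of all 13046. Among the 9240 genes with at least 2000 control counts, 29 were higher than both parts (0.314%) and 8 lower (0.0866%). At 1.5-fold the direction was not kept: 89 of these well-counted genes were higher than both parts and 101 lower. Scaling to totals rather than by TMM moved the log2 ratios by -0.15 against the larger column, -0.38 against the smaller and 0.17 against the remainder, and the 2-fold split against the larger column from 519 and 201 to 421 and 296. Statements below are relative to TMM scaling.

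**Figure D1:**
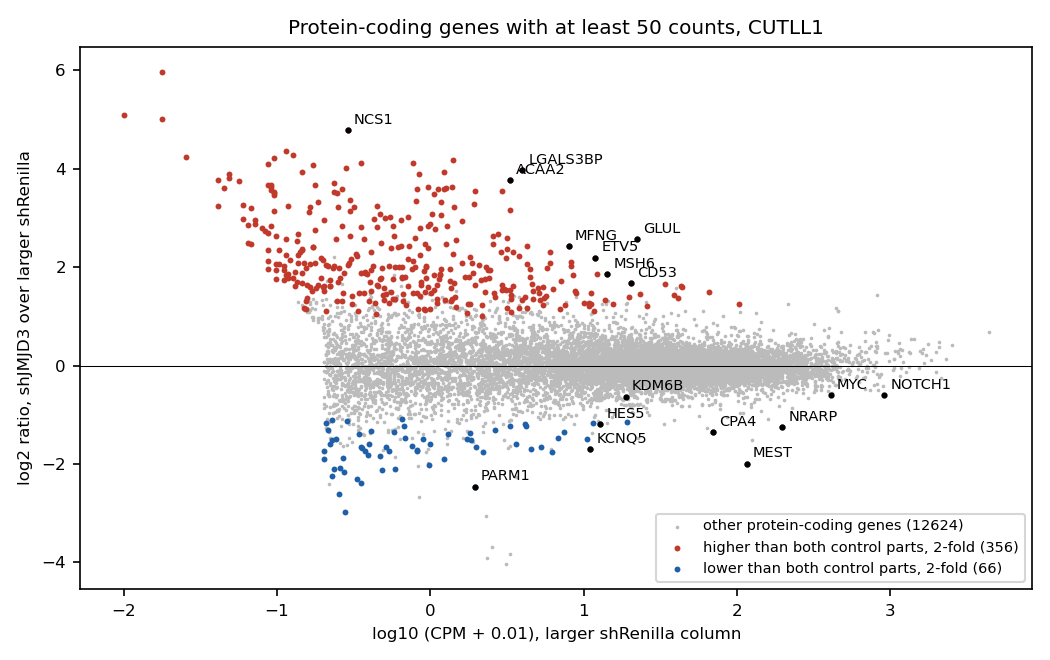
Log2 ratio of shJMJD3 over the larger shRenilla column (vertical) against the level in that column (horizontal, log10 of CPM + 0.01) for the 13046 protein-coding genes considered. Red and blue points are the 356 genes higher and the 66 lower than both control parts by 2-fold, and black points carry names. Red points crowd the left side, and NRARP, MEST and CPA4 stand low on the right.

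The best counted of the lower genes included direct NOTCH targets. NRARP, which feeds back to limit NOTCH signalling, was at 74.6 CPM with shJMJD3 and at 197 CPM in the smaller column, 196 CPM in the remainder and 138 CPM with shUTX. Its log2 ratio was -1.25 (interval -1.27 to -1.22), with -1.03 and -1.57 against the parts. HES5, a repressor of the hairy and enhancer of split family, was at 5.01 CPM with shJMJD3 against 15.03 CPM, 9.88 CPM and, with shUTX, 9.99 CPM. Its ratio was -1.19 (interval -1.30 to -1.09), and -1.21 and -1.15 against the parts. In both genes the shJMJD3 value lay below every other CUTLL1 column. In CEM they had 13 and 24 counts (NRARP) and 2 and 0 counts (HES5) with shJMJD3 and shRenilla, too few for a ratio. The stretch before the HES5 start site is shown because it is the promoter of the lower NOTCH target that holds the RBPJ core motif, TGGGAA on either strand, in capitals. It runs 5′ to 3′ on the minus strand of chr1:2530264-2530513 (RefSeq, GRCh38.p14), with matches beginning at -224 and -80 from the start site.
HES5: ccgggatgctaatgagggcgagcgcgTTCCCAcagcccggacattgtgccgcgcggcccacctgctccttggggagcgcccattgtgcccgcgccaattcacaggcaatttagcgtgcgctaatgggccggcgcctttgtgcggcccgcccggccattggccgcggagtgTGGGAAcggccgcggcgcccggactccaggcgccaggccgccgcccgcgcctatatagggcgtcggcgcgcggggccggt
The motif is common: in windows from 250 bases before to 50 after the start it was found in 24.3% of 27305 RefSeq promoters and in 6 of the 26 NOTCH targets that matched a promoter.

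MYC and NOTCH1 were lower by less. MYC, the growth regulator that NOTCH1 drives in T-ALL, was at 242 CPM with shJMJD3 against 489 CPM in the smaller column, 308 CPM in the remainder and 436 CPM with shUTX, a log2 ratio of -0.60 (interval -0.62 to -0.59) and of -0.64 and -0.51 against the parts. NOTCH1 had a ratio of -0.60, with -0.73 and -0.32 against the parts. Both stayed short of 1.5-fold against the remainder. DTX1, a ubiquitin ligase and NOTCH target, had -0.43, -0.45 and -0.36 against the larger column, the smaller and the remainder. HEY1 was split by the control: its log2 ratio was -1.31 against the smaller part and -0.01 against the remainder. The HES1 ratios were -0.07 and 0.86, those of IL7R -0.29 and 0.19. NOTCH3 (-0.11 against the larger column), IGF1R (-0.08) and PTCRA (0.04) were near 0.

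NOTCH targets were lower more often against the larger column than against both parts. Of 31 measured, 9 were at least 1.5-fold lower than the larger control, where 5.31% of all protein-coding genes were, and 3 higher, where 7.65% were. Against both parts 2 were lower (NRARP and HES5, background 2.27%) and 2 higher (CCND1 and RHOU, background 4.66%). The list's median log2 ratio was -0.08, beside -0.01 over all protein-coding genes. CCND1, the G1 cyclin, was at 2.41 CPM with shJMJD3 and 0.225 CPM in the larger control, an 11.5-fold higher level and a ratio of 3.52. Of 24 measured genes of the signalling machinery, MFNG and MAML3 were 1.5-fold higher than both parts and none lower, beside the same background of 4.66% and 2.27%. MFNG, a glycosyltransferase that adds sugar to NOTCH receptors and alters their response to ligands, was at 38.7 CPM with shJMJD3 against 6.84 CPM in the smaller column, 9.43 CPM in the remainder and 4.99 CPM with shUTX. Its ratio was 2.43 (interval 2.36 to 2.50), and no other CUTLL1 column came within 4-fold of the shJMJD3 level in CPM. The co-activator MAML3 had a ratio of 0.86, and 0.78 and 1.06 against the parts.

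**Figure D2:**
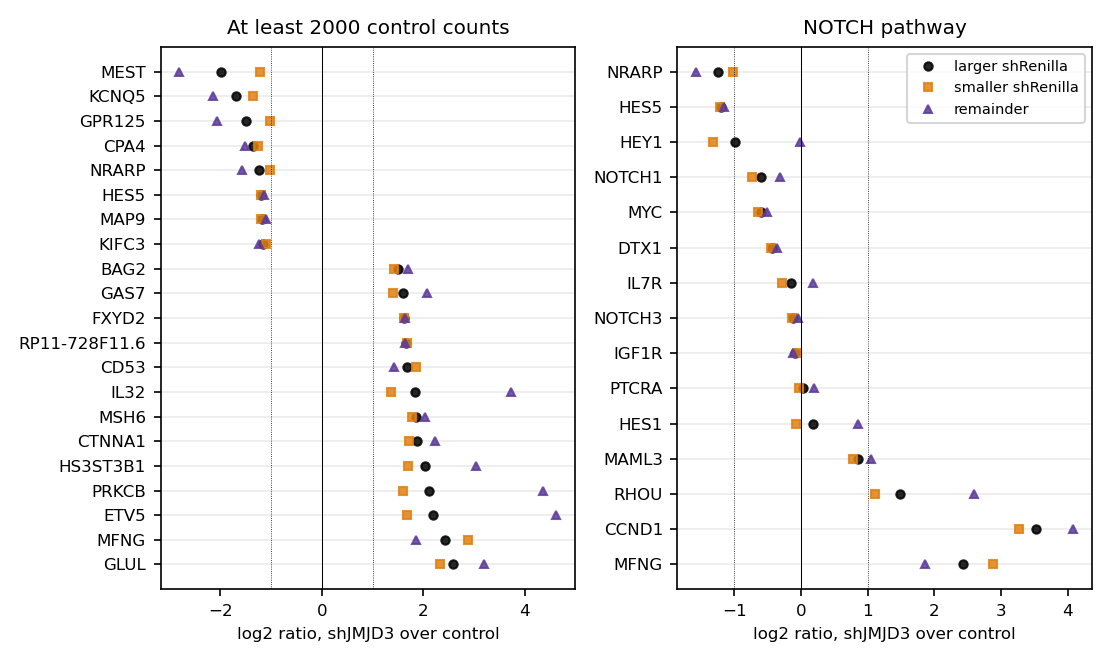
Log2 ratio of shJMJD3 over the larger shRenilla column (circles), the smaller column (squares) and the remainder (triangles). Left, the highest and the 8 lowest of the genes with at least 2000 control counts that were 2-fold from both parts, leaving out a gene not reported here; right, NOTCH pathway genes; dotted lines mark 2-fold. HES5, MAP9, KIFC3, FXYD2 and CPA4 have nearly the same ratio against each part, and ETV5, PRKCB and IL32 lie far higher against the remainder.

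MEST and 5 further genes complete the well-counted lower group. These 8 genes and the higher ones with at least 2000 control counts below were singled out after the values were seen. MEST, an imprinted gene of the hydrolase family, was at 26.1 CPM with shJMJD3 against 78.6 CPM and 163 CPM in the control parts and 62.6 CPM with shUTX. Its ratio was -1.99 (interval -2.04 to -1.95), and -1.21 and -2.81 against the parts. CPA4, a secreted carboxypeptidase, was at 24.5 CPM against 76.1 CPM, 62.0 CPM and, with shUTX, 71.2 CPM, a ratio of -1.36. Its control columns lay close together and the shJMJD3 column apart from them. The potassium channel KCNQ5 had -1.70, the receptor GPR125 -1.49, the microtubule-associated MAP9 -1.18 and the kinesin KIFC3 -1.15. In CEM, MAP9 (-1.18) and KIFC3 (-1.52) were also lower, KCNQ5 had -0.31 and GPR125 0.51.

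The 14 lowest genes with at least 200 counts, ranked by the weaker of their ratios, had 210 to 18029 counts in the larger column (median 503) and 36 to 4273 with shJMJD3 (median 101). PARM1, a membrane mucin-like protein, stood lowest with 54 counts against 242 and 258 in the control parts and a ratio of -2.46 (interval -2.93 to -2.09). QDPR, which regenerates the cofactor tetrahydrobiopterin, had -1.66, and the guanine nucleotide exchange factors MCF2L and TRIO were at 38 and 100 counts against 210 and 471 in the larger column. KCNQ5 and CPA4 are described above, and PARD3B (-2.03), PPM1H (-1.90), ACTL8 (-1.75), RASSF8 (-1.60), DUSP23 (-1.47), SYNDIG1 (-1.75), SOWAHA (-1.37) and KSR2 (-1.60) complete the group. Of thymocyte genes, CD8A, the co-receptor of cytotoxic T cells, was at 70.3 CPM against 143 CPM and 114 CPM, a ratio of -0.73, and KIT had 45 counts against 196 and 50. CD1A, a lipid-presenting marker of cortical thymocytes, lay the other way at 0.86. The homeobox oncogene NKX2-5 had a ratio of -0.83, with -0.92 and -0.63.

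Among the genes higher than both control parts, GLUL had the largest ratio of those with at least 2000 control counts. GLUL, glutamine synthetase, was at 119 CPM with shJMJD3 against 30.5 CPM in the smaller column, 11.6 CPM in the remainder and 32.6 CPM with shUTX. The ratio was 2.58 (interval 2.53 to 2.62), a 5.97-fold higher level, and it was 2.34 and 3.19 against the parts. MSH6, a mismatch repair protein, was at 46.6 CPM against 17.5 CPM, 10.03 CPM and, with shUTX, 13.8 CPM, a ratio of 1.86. The cell adhesion protein CTNNA1 (alpha catenin) had 1.87, and 1.72 and 2.23 against the parts. In these 3 genes the shJMJD3 column was the highest of the CUTLL1 columns by more than 2-fold on the CPM scale.

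Other genes of this group had lower ratios. GAS7 had a log2 ratio of 1.60 and the co-chaperone BAG2 one of 1.51. CD53, a tetraspanin of leukocytes, was at 58.7 CPM against 21.1 CPM, 19.5 CPM and, with shUTX, 18.0 CPM, a ratio of 1.67. FXYD2, a subunit of the sodium pump, had 1.61 against the larger column and 1.61 and 1.63 against its parts. The overlapping gene RP11-728F11.6 had 1.66, and the reads of the pair cannot be told apart here. IL32, an inflammatory cytokine, was at 27.3 CPM with shJMJD3 and 30.0 CPM with shUTX, a log2 ratio between them of 0.18 after scaling, against 13.7 CPM and 1.82 CPM in the control parts.

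Several genes, 2 of them with fewer than 2000 control counts, were higher against each part but by very different amounts. ETV5, an ETS factor induced by ERK signalling, was at 48.7 CPM with shJMJD3 against 19.8 CPM in the smaller column, 1.74 CPM in the remainder and 21.5 CPM with shUTX. The smaller and shUTX columns lay together and the remainder far below, so the log2 ratio was 1.67 against the smaller part and 4.62 against the remainder. DUSP6, an ERK phosphatase, had 1.05 and 2.85, and DUSP4 had 1.64 and 5.10. PRKCB, protein kinase C beta, had 1.60 and 4.35. JAK3, the kinase of the common gamma chain receptors, was at 8.76 CPM against 2.00 CPM, 0.106 CPM and, with shUTX, 1.13 CPM. Of 28 measured immediate early and AP-1 genes, 3 were 1.5-fold higher than both parts (background 4.66%), and JUN had 0.60 and 2.04.

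Interferon-stimulated genes were among those higher. Of 40 measured, 11 were at least 1.5-fold higher than both control parts and none lower, where 4.66% and 2.27% of all protein-coding genes were. The list's median log2 ratio was 0.22, beside -0.01 over all protein-coding genes. With scaling to totals it was -0.13 against the smaller column, beside -0.40 over all protein-coding genes. Under that scaling 10 of the 40 were higher than both parts, as were 432 of all 13046. OAS3, which makes the second messenger that activates RNase L, was at 10.8 CPM with shJMJD3 against 1.07 CPM in the smaller column, 1.03 CPM in the remainder and 0.727 CPM with shUTX. The level was 11.3-fold higher after scaling (log2 interval 3.32 to 3.70). The control and shUTX values lay close together and the shJMJD3 value far above them. BST2 (tetherin), which holds budding virions at the cell surface, had 1550 counts against 205, 4 and, with shUTX, 110. GBP1, an interferon-induced GTPase, had 382 counts against 23, 7 and 22, a ratio of 4.28 (interval 3.85 to 4.98). It is from the list of guanylate-binding proteins, of which 2 of 5 measured were 1.5-fold higher than both parts (background 4.66%). With 30 counts in the larger control, GBP1 was measured only through the shJMJD3 column. OAS1 had 112 counts against 10 in the smaller part and 0 in the remainder, at least 21.6-fold higher than the latter. The other higher members of the list were LGALS3BP, OAS2, IFIT3, CMPK2, OASL, PARP9, MX1 and PARP14, named to complete the count. None of the 11 had 2000 control counts, and IFIH1 and USP18 were 1.5-fold lower than the larger column.

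The stretches before the start sites of OAS3, BST2 and GBP1 are shown because they hold an interferon response element, in capitals, before genes that had few control counts. The element was searched as TTTC, any 2 bases and TTTC, on either strand. All run 5′ to 3′ on the gene's strand and come from RefSeq (GRCh38.p14): OAS3 from chr12:112938224-112938473 (plus strand, matches beginning at -143 and -12), BST2 from chr19:17405631-17405880 (minus strand, overlapping matches at -130 and -124) and GBP1 from chr1:89065209-89065458 (minus strand, 1 match at -127).
OAS3: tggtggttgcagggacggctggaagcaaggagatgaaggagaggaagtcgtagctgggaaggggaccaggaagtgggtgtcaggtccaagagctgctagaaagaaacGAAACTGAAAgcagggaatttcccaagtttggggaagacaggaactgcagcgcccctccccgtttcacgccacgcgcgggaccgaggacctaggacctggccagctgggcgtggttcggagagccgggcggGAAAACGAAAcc
BST2: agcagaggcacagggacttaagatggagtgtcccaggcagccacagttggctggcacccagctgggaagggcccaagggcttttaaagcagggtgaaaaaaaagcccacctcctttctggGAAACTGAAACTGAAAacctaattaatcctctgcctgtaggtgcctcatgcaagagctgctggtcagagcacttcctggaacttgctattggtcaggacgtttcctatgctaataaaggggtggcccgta
GBP1: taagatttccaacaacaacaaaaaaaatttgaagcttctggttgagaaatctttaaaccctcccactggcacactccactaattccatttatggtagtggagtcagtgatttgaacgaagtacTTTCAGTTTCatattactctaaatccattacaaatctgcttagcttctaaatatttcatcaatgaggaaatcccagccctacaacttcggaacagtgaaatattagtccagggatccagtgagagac
In windows reaching 50 bases past the start, the element was found in 3.65% of 27305 promoters and in 20 of the 32 interferon-stimulated genes that matched a promoter. Among the 11 higher genes 9 matched, and 6 of them held it.

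Some genes of antigen presentation by MHC class I were higher. Of 22 measured genes, 6 were 1.5-fold higher than both parts and none lower (background 4.66% and 2.27%), with a median log2 ratio of 0.46 and the same count of 6 under scaling to totals. The summed level of the list was 3773 CPM with shJMJD3, between those of the smaller column (4570 CPM) and the remainder (2335 CPM). PSMB9, a subunit of the immunoproteasome, was at 31.1 CPM with shJMJD3 against 16.5 CPM in the smaller column, 10.3 CPM in the remainder and 13.9 CPM with shUTX, a ratio of 1.33 (interval 1.27 to 1.39). ERAP2, which trims peptides for loading, was at 202 CPM against 134 CPM, 68.8 CPM and, with shUTX, 118 CPM, a ratio of 1.09. HLA-B, a presenting heavy chain whose reads may be shared with its paralogs, had 1.04, and 0.96 and 1.22 against the parts. The activator of the class I genes, NLRC5, had 281 counts against 114 and 54, a ratio of 1.45. In each of these 4 genes the shJMJD3 value was above both parts and shUTX.

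APOBEC3 cytidine deaminases edit viral DNA and lie in a cluster of similar genes. Of 6 measured, 3 were 1.5-fold higher than both parts and none lower (background 4.66% and 2.27%), with a median log2 ratio of 1.00. APOBEC3C had 289 counts against 42 in the smaller part, 33 in the remainder and 44 with shUTX, a ratio of 2.62 (interval 2.29 to 3.05), APOBEC3B had 2.06 and APOBEC3D 1.00. Reads of these paralogs can be shared. APOBEC3B, with 23 counts in the larger control, was measured only through the shJMJD3 column. Of 6 measured MHC class II genes, 3 were 1.5-fold higher than both parts (the same background), each with under 100 counts in the larger control. HLA-DOA and HLA-DOB, with 47 and 48 counts there, were measured only through the shJMJD3 column, so the share partly follows from the minimum. HLA-DOA had 135 counts with shJMJD3 against 34 and 13.

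Receptors for cytokines and for homing followed. Of 31 measured cytokine receptor and JAK-STAT genes, 9 were 1.5-fold higher than both parts and 1 lower (background 4.66% and 2.27%; 6 and 0 under scaling to totals), with a median of 0.25. IL15RA had 117 counts against 12 and 0, at least 22.6-fold higher than the remainder, and IL12RB1 had a ratio of 2.23. Of 25 measured chemokine and homing receptors, 5 were higher and none lower (the same background; 2 and 0 under scaling to totals). CCR9, the receptor that draws thymocytes and T cells to the thymus and gut, was at 75.5 CPM against 53.1 CPM, 26.1 CPM and, with shUTX, 54.2 CPM, a ratio of 1.03, and CD44 had 0.87. LTB (lymphotoxin beta) had 1.79, and 2.16 and 1.31 against the parts.

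Of 36 measured genes of proteoglycans and their sulfation, 6 were 1.5-fold higher than both parts and 2 lower (background 4.66% and 2.27%; 5 and 1 under scaling to totals). HS3ST3B1, a heparan sulfate sulfotransferase, was at 30.6 CPM with shJMJD3 against 12.2 CPM, 3.31 CPM and, with shUTX, 10.3 CPM, a ratio of 2.03 (interval 1.96 to 2.11). Its close paralog HS3ST3A1 had 365 counts against 0 in the smaller part, 27 in the remainder and 0 with shUTX, at least 131-fold higher than the smaller part. CHST15, a chondroitin sulfotransferase, had 2.67, and the syndecan core protein SDC4 had 749 counts against 203 and 0.

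Apoptosis regulators and detoxifying enzymes each held 3 members higher than both parts. Of 29 measured apoptosis regulators, 3 were 1.5-fold higher than both parts and none lower, beside 4.66% and 2.27% of all protein-coding genes. TNFRSF10A, a receptor of the death ligand TRAIL, had 438 counts with shJMJD3 against 59 in the smaller part, 2 in the remainder and 4 with shUTX. FAS had 359 against 181, 29 and 67, and the ligand gene TNFSF10 had 106 against 49, 6 and 44. Of 30 measured genes of heme breakdown and glutathione defence, 3 were higher than both parts and none lower, against the same background. They were BLVRB, which reduces biliverdin, with 477 counts against 57 and 1, and the glutathione transferase genes GSTM3 (a ratio of 2.96, and 2.80 and 3.28 against the parts) and MGST2 (1.99).

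**Figure D3:**
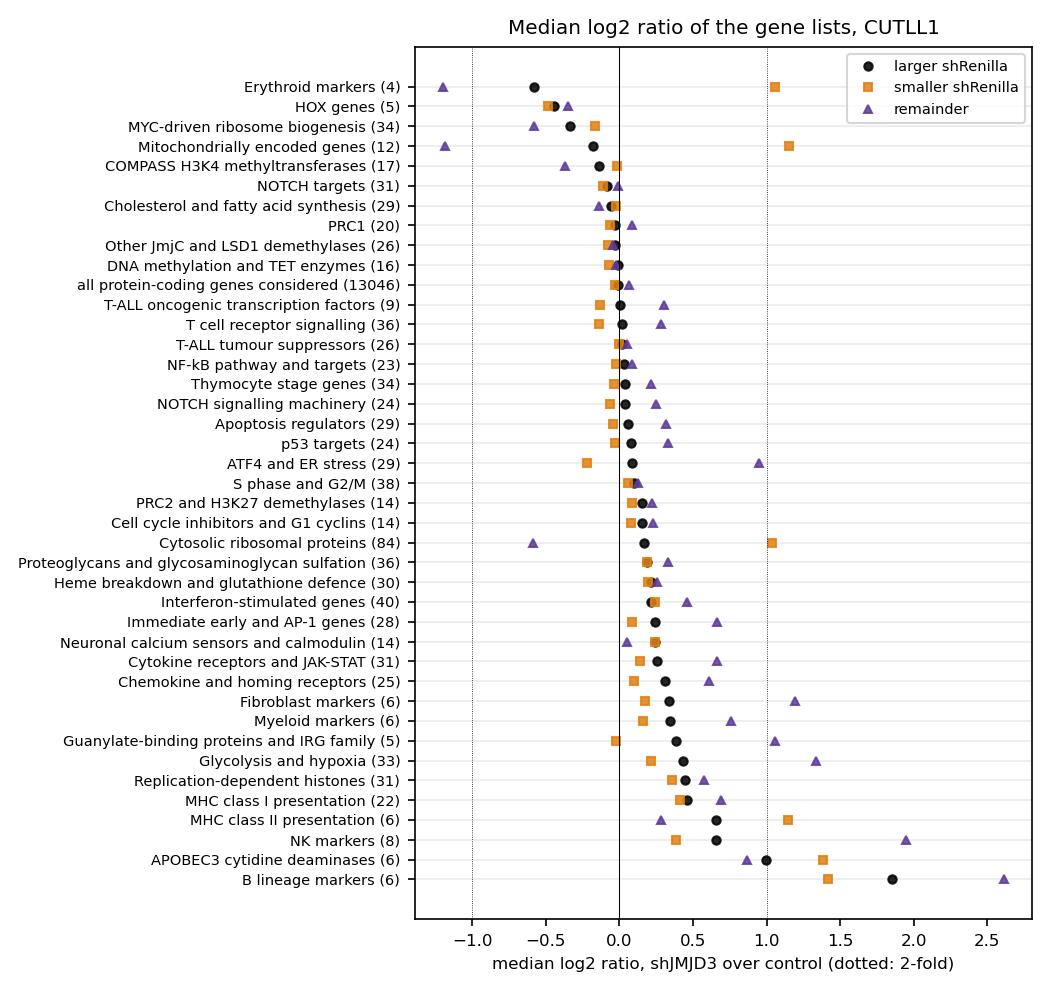
Median log2 ratio of each gene list (number of measured genes in brackets) for shJMJD3 over the larger shRenilla column (circles), the smaller column (squares) and the remainder (triangles). The ribosomal protein and mitochondrially encoded lists switch sides with the control part, and MHC class I genes keep to the right with each.

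Growth and housekeeping lists showed smaller or control-dependent ratios. The 34 measured genes of MYC-driven ribosome biogenesis had medians of -0.33 against the larger column, -0.17 against the smaller and -0.58 against the remainder. SRM, spermidine synthase, was the only one 1.5-fold lower than both parts (background 2.27%; 6 of the 34 under scaling to totals), at 13.2 CPM against 28.9 CPM, 38.7 CPM and, with shUTX, 20.0 CPM. S phase and G2/M genes (38 measured, median 0.10) and T cell receptor signalling genes (36 measured, median 0.02) had no member 1.5-fold from both parts. The 33 measured glycolysis and hypoxia genes had medians of 0.43, 0.21 and 1.33, and 3 were 1.5-fold higher than both parts (background 4.66%). Among them were the glucose transporter SLC2A3 (1.06) and the collagen hydroxylase P4HA1 (1.06, with 0.59 against the smaller part and 2.99 against the remainder). Their log2 ratios of shJMJD3 over shUTX were 0.20 and -0.13. None of those 33 stayed past 1.5-fold against both parts under scaling to totals. Cytosolic ribosomal proteins had medians of 1.03 against the smaller column and -0.59 against the remainder, and mitochondrially encoded genes 1.15 and -1.19. No direction can be given for either list.

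Many of the highest ratios came from genes near silent in the control and nearly absent from its remainder. The 14 highest genes, ranked by the weaker of their ratios, were NCS1, GBP1, RHBDF2, BIN2, TNFRSF25, RNF135, RBFOX2, SLC38A5, ECM1, DLC1, CRABP1, ACAA2, LGALS3BP and ANXA2, with 20 to 1018 counts in the larger control (median 80.5) and 233 to 9708 with shJMJD3. NCS1, a neuronal calcium sensor, had 1243 counts with shJMJD3 against 62 in the smaller part, 10 in the remainder and 34 with shUTX, a ratio of 4.78 (interval 4.48 to 5.19). LGALS3BP, a secreted galectin-binding protein, had 9708 counts against 1000, 18 and, with shUTX, 477. SLC38A5, a glutamine transporter, had 3981 against 346, 14 and 206. ACAA2, a mitochondrial fatty acid oxidation enzyme, had 7061 against 712, 137 and 364. CRABP1, which binds retinoic acid, had 957 counts against 89 and 0. The remainder was not low for each of the 14: ANXA2, a membrane-binding annexin, had 2108 counts against 78 in the smaller part and 119 in the remainder, and RHBDF2 had 349 against 23 and 12.

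A low remainder was common in the group. In 154 of the 356 higher genes (43.3%) the scaled remainder was at least 2-fold below the smaller part, as in 6.19% of all protein-coding genes, and in 43 the remainder held 0 counts. The rule that chose the 356 itself favours a low remainder. The groups also differ in level, since 61.8% of the 356 and 12.2% of all genes lay under 1 CPM in the larger control. With remainder or smaller-part counts below 3 set to 3, the counts of 356 and 66 did not change. This setting could not have removed a gene from either set. Under the count minimum, each of the 356 had a shJMJD3 count more than 2-fold above 3 after scaling. For the 66 the control is the higher side. The unchanged counts therefore say nothing about genes nearly absent from the remainder. The transcription factor SMAD5, which transmits signals of bone morphogenetic proteins, had 2434 counts with shJMJD3, 324 in the smaller part, 0 in the remainder and 134 with shUTX, and LDOC1L had 5419, 755, 0 and 261. The part that the makeup of the control columns has in these ratios was not tested. Against the shUTX column, which like the smaller control was low in small non-coding RNA, the log2 ratio of shJMJD3 was 3.71 for SMAD5 and 3.91 for LDOC1L. It was 4.67 for NCS1 and 3.88 for LGALS3BP. Against the smaller control the ratio was 3.00 for SMAD5, 2.94 for LDOC1L, 4.38 for NCS1 and 3.38 for LGALS3BP.

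**Figure D4:**
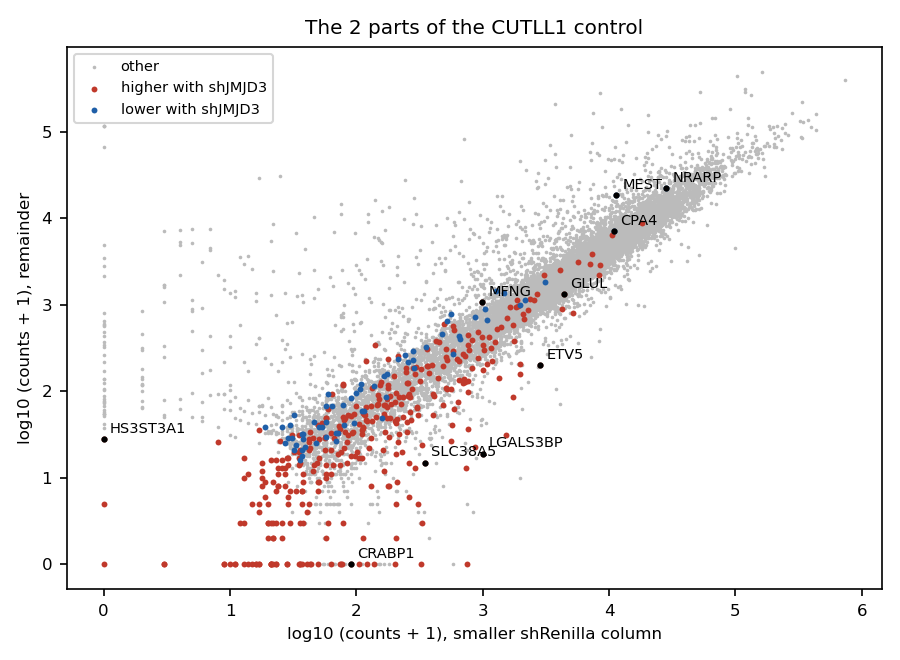
Counts in the remainder (vertical) against the smaller shRenilla column (horizontal), both as log10 of counts + 1, for protein-coding genes. Red points (higher than both parts with shJMJD3) often lie below the diagonal band or on the floor at 0 counts, as CRABP1 does, and blue points (lower) lie mostly within the band.

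Higher genes often lay side by side. Along the chromosomes, 73 of the 356 (20.5%) had another of the 356 as their nearest considered protein-coding gene on either side, and of all 13044 placed genes 691 (5.30%) lay next to one. The runs included PARP9, DTX3L, PARP15 and PARP14, the OAS1, OAS3 and OAS2 cluster, LTB, LST1 and NCR3, GBP3 with GBP1, SLAMF1 with CD48, TNFRSF10D with TNFRSF10A, and ETV5 with DGKG. Some runs are paralogs or readthrough genes that can share reads, such as CDRT4, FAM18B2-CDRT4 and FAM18B2. Of the 66 lower genes, 4 (6.06%) lay next to another lower gene, and of all placed genes 132 (1.01%) did.

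Markers of T cells were present and those of other lineages low. The 7 T cell markers summed to 2020 CPM with shJMJD3 and 2214 CPM in the larger control, with none at 0, and CD3D was at 771 and 810 CPM. The 5 B cell markers summed to 4.14 and 1.48 CPM, nearly all from CD79A, with MS4A1 and PAX5 at 0 counts in both. Myeloid markers summed to 3.44 and 2.31 CPM, NK markers to 24.6 and 19.9 CPM, erythroid markers to 0.275 and 0.546 CPM, and fibroblast markers to 9.84 and 3.84 CPM, where DCN gave 9.47 and 3.44 CPM and COL1A1, COL1A2 and COL3A1 stayed under 1 CPM. In the wider B lineage list, 4 of 6 measured genes were 1.5-fold higher than both parts (background 4.66%) and 1 was 1.5-fold lower than the larger control. The higher ones included IGLL1 (2.64) and CD37 (3.01). In pooled RNA, more cells that express a gene and more RNA per cell cannot be told apart.

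Part of these genes differed the same way in CEM. Of the 356 genes higher in CUTLL1, 276 had 50 counts in CEM, and 74 of these (26.8%) were 2-fold higher there and 50 (18.1%) 2-fold lower, where 11.3% and 10.1% of the 12026 protein-coding genes considered in both lines were. Of the 66 lower genes, 37 had 50 counts, and 15 (40.5%) were lower and 3 (8.11%) higher. With scaling to totals the CUTLL1 sets themselves became 264 higher and 115 lower genes, and the shared counts 38 higher and 30 lower. The share of all genes called in CEM under totals was not computed, so these counts have no background. The lines share no samples. GLUL (1.56), PSMB9 (1.30), HLA-B (1.52), OAS3 (1.16), GBP1 (1.28), CHST15 (2.44), ECM1 (2.03) and IGLL1 (5.83) were also at least 2-fold higher in CEM, and QDPR (-1.70), TRIO (-2.19), MCF2L (-4.08) and SRM (-1.29) lower. CCR9 (-2.24), CCND1 (-1.12), CD1A (-1.92) and MAML3 (-1.25), all higher in CUTLL1, lay the other way in CEM, and MFNG (-0.44), ETV5 (-0.02), GAS7 (-0.00) and CTNNA1 (-0.01) were under 1.5-fold. Of the genes named here, HLA-B, SRM, CCR9, CD1A and MAML3 lie outside the 356 and 66. They were 1.5-fold but not 2-fold from both parts in CUTLL1. Whether the lines differ was not tested, since each has 1 value.

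**Figure D5:**
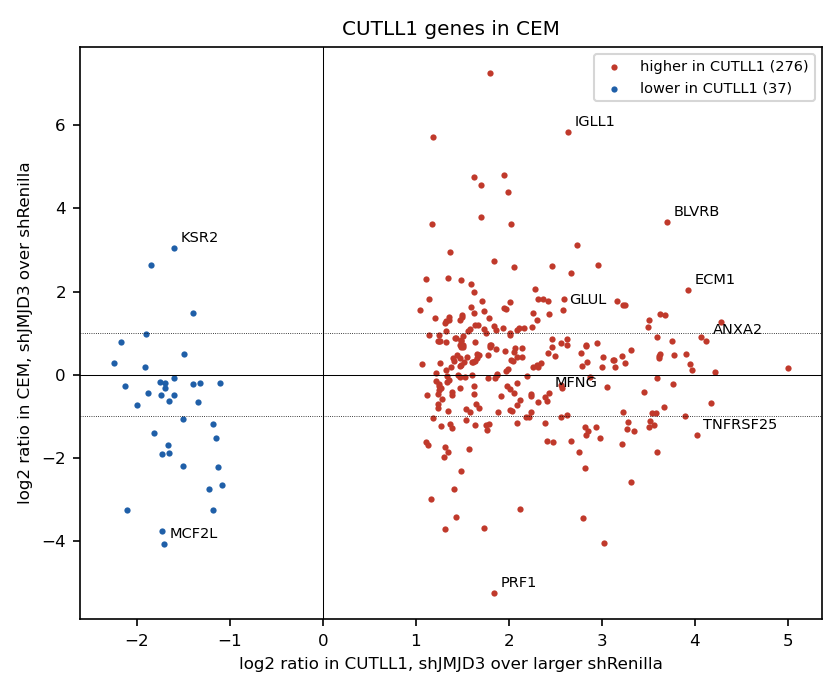
Log2 ratio of shJMJD3 over shRenilla in CEM (vertical) against CUTLL1, larger control (horizontal), for the 276 higher (red) and 37 lower (blue) CUTLL1 genes with at least 50 CEM counts. Dotted lines mark 2-fold in CEM; red points spread to both sides of 0, and blue points lie mostly below it.

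The level of the higher genes in the CEM control varied widely, with a median of 4.20 CPM beside 33.0 CPM over all protein-coding genes. In 52 of the 356 (14.6%) it was under 0.1 CPM, as in 3.79% of all. Among genes under 1 CPM in the CUTLL1 control these shares were 19.1% and 18.8%, and among those at 1 CPM or more 7.35% and 1.71%. In 147 of the 356 (41.3%) the CEM control level in CPM was over 10-fold above the CUTLL1 control level, as in 3.26% of all protein-coding genes. Among genes under 1 CPM in the CUTLL1 control the shares were 46.8% and 14.7%, and among those at 1 CPM or more 32.4% and 1.68%. The rule that chose the 356 favours a low CUTLL1 control level, so these shares partly follow from it. The control columns also differ in makeup. Small non-coding RNA took 0.049% of CEM shRenilla and 9.33% of the larger CUTLL1 column, and protein-coding genes 93.0% and 72.2%. CPM is not scaled for this, and its part in these shares was not tested. Of 10 genes above 100 CPM in the CEM control and under 0.1 CPM in the CUTLL1 control, 3 had 0 counts with shJMJD3 and the median was 0.0229 CPM. The highest, ALCAM, was at 0.488 CPM with shJMJD3 against 0.0310 CPM in the larger control.

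The shUTX column gives a side by side view, though its ratio uses the smaller part of the same control. Small non-coding RNA took 2.58% of it, near the smaller column (1.97%) and below shJMJD3 (11.7%). RNA makeup and hairpin therefore cannot be told apart in this view. For shUTX over the smaller column the log2 ratio was 0.15 for GLUL, -0.40 for MFNG, -0.29 for MSH6, -0.20 for PSMB9 and -0.49 for OAS3, beside 2.34, 2.87, 1.79, 1.29 and 3.69 for shJMJD3 over that column. For lower genes it was -0.46 for NRARP, -0.54 for HES5, -0.27 for MEST, -0.04 for CPA4 and -0.11 for MYC, beside -1.03, -1.21, -1.21, -1.26 and -0.64. KDM6A, the target of that hairpin, had -1.11, and KDM6B 0.44.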

How the data were processed

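Poly-A-selected or ribosome-depleted RNA of hairpin-infected CUTLL1 and CEM cells was sequenced as 50-nt single reads of strand-marking libraries. The authors deposited raw counts per gene in DEGseq tables, with 1 column per hairpin and line, per the file headers. Per the submitters' processing notes, CASAVA, TopHat and the hg19 build were used. How reads were counted, with which annotation and strand setting, was not given in the sources used here. Which libraries each column holds is not given, so columns were read as pooled values, and no p-value was computed.

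Log2 ratios used TMM scaling (edgeR 4.0.16, genes with at least 50 counts) and a prior count of 2. Genes were called at 2-fold, list members at 1.5-fold; code was tested on simulated data. Alternatives were totals or DESeq2 1.42.0 size factors, other control columns, count minimums, priors and folds. Biotypes and gene order came from GENCODE 29, whose assembly is not hg19, so 48932 of 55075 genes matched and positions are given only for RefSeq promoters. Named genes are KDM6B, KDM6A, NOTCH genes, the 14 highest and 14 lowest by their weakest ratio at 200 counts or more, and up to 4 members of each of 40 lists. Members and lists were chosen with earlier results of these data known. Some genes that this rule names are not reported here.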

Additional observations from a re-analysis of the deposited data

Results flagged for a closer look

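Among the genes named as highest or lowest that had at least 50 counts in either CEM column, 2 were at least 2-fold apart from control in opposite directions in the 2 lines. TNFRSF25, a death-domain receptor of T cells, had 712 counts with shJMJD3 in CUTLL1 against 70 in the larger control, and a log2 ratio of -1.46 in CEM, from 71 counts against 362. KSR2, a scaffold of the ERK pathway, had 186 counts against 931 in CUTLL1 and a ratio of 3.04 in CEM, from 717 counts against 158. The difference between lines was not tested, because each line gives 1 value per hairpin.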

How the results depend on the processing

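No paired analysis was possible because the deposited columns pool the replicates of a hairpin, and for the same reason no replicate could be left out. Below, counts are given as higher and lower. Against 519 and 201 genes at 2-fold, the smaller control column gave 975 and 142 and the remainder 1176 and 643. The minimum of 10 counts gave 779 and 473, no minimum 1300 and 824 and a minimum of 200 counts 348 and 110. The minimum of 2000 control counts, chosen after the data were seen, gave 58 and 25. At 1.5-fold there were 998 and 693, at 4-fold 175 and 22, and over all biotypes 747 and 449. Against 356 and 66 genes past 2-fold from both control parts, totals gave 264 and 115 and a minimum of 10 counts 505 and 183. A minimum of 200 counts gave 245 and 31, no minimum 717 and 210, and 2000 control counts 29 and 8. At 1.5-fold from both parts, totals gave 432 and 430 in place of 608 and 296. For genes called the same way in CEM (74 and 15), totals gave 38 and 30, 200 counts 54 and 9 and 2000 control counts 6 and 2. The KDM6B ratio was -0.79 with totals and between -0.66 and -0.61 with each other setting tried. The median of MHC class II genes was 0.65 and turned to -0.029 at a minimum of 200 counts, where fewer genes are measured. Counts of low genes rest on few reads, and the spread between samples is unknown.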
